A study of Mus musculus with 6 samples.

Results

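The immunoglobulin constant genes and the J chain gene were followed in mouse inguinal white adipose tissue, a fat depot under the skin of the groin. They comprise the 8 heavy chain constant genes Ighm, Ighd, Ighg1, Ighg2b, Ighg2c, Ighg3, Igha and Ighe, the kappa light chain constant gene Igkc, and Jchain. They were chosen by name, 10 of the 57180 genes of the deposited expression table. All 10 were found once each, and 9 reached the mean of 1 TPM over the libraries that a gene needed to be tested. Ighe did not. TPM is the abundance of a transcript per length, scaled to a fixed total in each library.

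The tissue came from male wild-type (WT) mice, which served 2 groups with 3 libraries each. One group (HEP) received a high-fat diet with 0.5% hesperidin, a flavonoid glycoside of citrus peel, and the other (HFD) the high-fat diet alone, both over 12 weeks. All 6 libraries carry the same batch label, and the labels leave unsaid whether different mice gave them. P-values therefore speak to the spread between these samples, which may be technical. Read depth is unknown because TPM keeps none, so no counting interval is given.

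An antibody is built from heavy and light chains, and the heavy chain constant region sets its class. A resting, naive B cell makes IgM and IgD together from 1 long transcript that is spliced to Ighm or Ighd. After activation the cell can delete the DNA between and so switch to an IgG, IgE or IgA constant gene lying further along the locus. Plasma cells then secrete the antibody, and the J chain, a small protein they make, joins IgM into pentamers and IgA into dimers. In the inguinal fat pad a lymph node lies embedded, so RNA of the pad can include that of the node.

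In the GENCODE M21 annotation (GRCm38) the heavy chain constants lie on the minus strand of chromosome 12 in the order Ighm, Ighd, Ighg3, Ighg1, Ighg2b, Ighg2c, Ighe and Igha. Igkc is on chromosome 6 and Jchain on chromosome 5. The build of the deposited values is not given in the sources used here, so coordinates are left out. The 4 IgG genes are close relatives, and a stretch of their coding sequence is shown because it bears on how far their values can be told apart. The stretch is the 75 bases, aligned without gaps in the shortest transcript of each gene in that annotation, in which the 4 genes differ at the fewest positions, 14 in all. Capitals mark the positions at which at least 1 of the 4 differs.
Ighg1: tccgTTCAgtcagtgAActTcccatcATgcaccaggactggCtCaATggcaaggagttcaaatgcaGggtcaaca
Ighg2b: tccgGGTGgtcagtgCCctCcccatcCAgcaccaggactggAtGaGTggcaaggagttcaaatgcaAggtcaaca
Ighg2c: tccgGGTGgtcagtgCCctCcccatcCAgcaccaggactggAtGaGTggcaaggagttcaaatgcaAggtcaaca
Ighg3: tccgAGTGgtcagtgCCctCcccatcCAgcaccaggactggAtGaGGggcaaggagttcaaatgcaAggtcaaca
Ighg2b and Ighg2c are identical over this stretch. Over the whole of those transcripts they had 86.4% identity and a longest shared run of 78 bases. The other 5 IgG pairs had between 73.7% and 75.9% identity, with longest shared runs between 28 and 41 bases. How reads from such runs were assigned is not given in the sources used here, and the split between Ighg2b and Ighg2c is therefore the least certain among the members. Of the 31-base words in its transcripts, Ighg2c shared 15.0% with other genes of the annotation, Ighg2b 9.29%, Ighg3 3.63% and Ighg1 1.72%, in each case with the other IgG genes. Ighm, Igha, Ighe and Igkc shared 0 such words with transcripts of other genes, Ighd 0.107% and Jchain 0.288%. Of all 10 genes, Igkc alone overlapped another annotated gene, the noncoding Gm30211 on the same strand, which had 13.7, 0.00 and 13.9 TPM in HEP replicates 1 to 3 and 0.02, 0.00 and 5.64 TPM in HFD replicates 1 to 3.

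The libraries differed in lymphocyte RNA within both groups, and most members were high in the same libraries. Whether diet bore on that difference was not tested. Summed over 18 B cell markers, HEP had 1712, 22.1 and 1798 TPM and HFD had 18.9, 35.1 and 841 TPM. The sums of 20 T and NK cell markers were 1506, 26.0 and 1599 TPM in HEP and 16.3, 37.2 and 1115 TPM in HFD. Summed over 10 markers of lymph node stroma and vessels, the values were 1407, 20.9 and 1505 TPM in HEP and 20.9, 13.2 and 1099 TPM in HFD. Fcer2a and Cr2 are in both this list and the B cell list, so these sums are not independent. Glycam1, a ligand for lymphocyte homing made by the high venules of lymph nodes, was listed at 0 in HEP replicate 2 and in HFD replicates 1 and 2. In the other 3 libraries it had 120 and 195 TPM in HEP and 132 TPM in HFD. The 10 adipocyte markers, all with high levels in every library, summed to 31282, 50710 and 29317 TPM in HEP and 49513, 51376 and 39658 TPM in HFD. Fat tissue was thus present in every library, while the depot itself was not checked. HEP replicate 2 also held 11393 TPM of 8 skeletal muscle transcripts, and it and HFD replicate 1 held 1024 and 664 TPM of Alb, the albumin gene of liver. The part of these other cells in each member's level was not tested beyond the covariate fit of the diet comparison. In bulk tissue fewer cells of a type and less RNA per cell cannot be told apart.

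**Figure D1:**
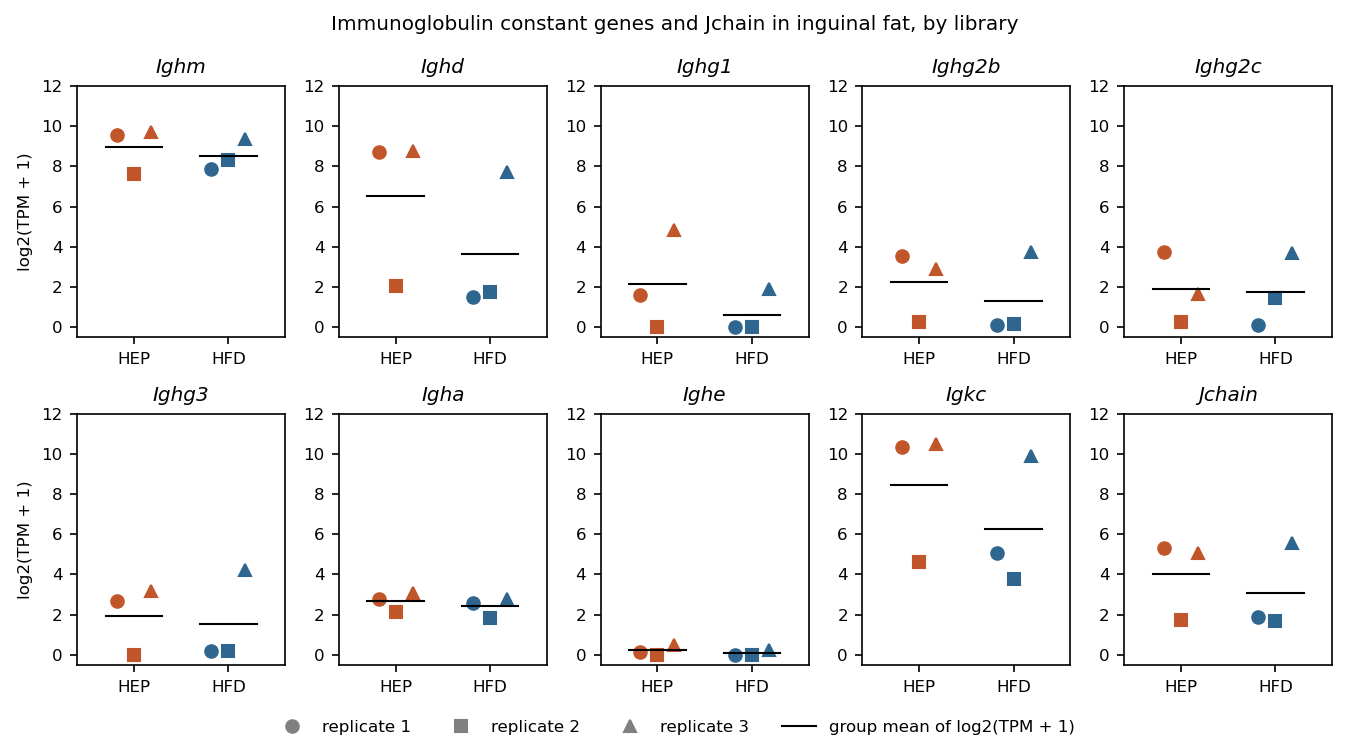
Level of each member in the 6 libraries as log2(TPM + 1), with HEP left of HFD in each panel, 1 point per library and a line at the group mean. HEP replicates 1 and 3 and HFD replicate 3 are the highest for Ighd, Igkc, Jchain and Ighm, while Igha lies between 2.60 and 7.39 TPM throughout.

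IgM and IgD are the classes of the naive B cell. Ighm was the most abundant heavy chain transcript in every library, and Ighd came after it in HEP replicates 1 and 3 and in HFD replicate 3. Ighm had 747, 194 and 840 TPM in HEP replicates 1 to 3, and 235, 323 and 648 TPM in HFD replicates 1 to 3. Its highest library was 4.34-fold above its lowest. Ighd had 419, 3.11 and 439 TPM in HEP replicates and 1.80, 2.31 and 210 TPM in HFD replicates, a span of 244-fold. HEP replicates 1 and 3 and HFD replicate 3 were thus high for both genes, but in the other 3 libraries Ighd lay between 1.80 and 3.11 TPM and Ighm at 194 TPM or more. In those libraries Ighm was the highest of all 10 members. The table gives 1 value per gene, so where on Ighm the reads lay was not seen, and what its level, its share and its ratio to Cd79b stand for in those libraries was not tested.

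Set against Cd79b, a signalling chain of the B cell receptor, the difference between Ighm and Ighd was plain. Cd79b had 252, 2.95 and 300 TPM in HEP and 1.77, 1.89 and 149 TPM in HFD. The ratio of Ighm to Cd79b was 2.97, 65.7 and 2.80 in HEP libraries and 133, 171 and 4.34 in HFD libraries. It was thus far higher where Cd79b was low. On the log2 scale the HEP ratio averaged 3.03 ± 2.60 and the HFD ratio 5.53 ± 2.96 (SD, n = 3 each). That difference of -2.50 had a two-sided exact permutation p of 0.20 (adjusted over 6 ratios, 0.40), where 3 samples against 3 cannot go below 0.1. Leaving out HEP replicate 2 gave -4.00, leaving out HFD replicate 2 gave -1.55 and leaving out HFD replicate 3 gave -4.20. More HEP than HFD libraries were rich in Cd79b, so diet and that split cannot be told apart in this ratio. The same holds below for the ratios of Ighd to Ighm, of Igkc to the heavy chain constants and of Jchain to Igkc.

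The ratio of Ighd to Ighm was 0.562, 0.0161 and 0.523 in HEP and 0.00766, 0.00715 and 0.324 in HFD. Its log2 value averaged -2.58 ± 2.93 in HEP and -5.26 ± 3.15 in HFD (SD, n = 3 each), a difference of 2.68 with an exact permutation p of 0.20, two-sided, and 0.40 adjusted over the 6 ratios. The groups overlapped, and the difference became 4.38 when HEP replicate 2 was omitted, 1.75 when HFD replicate 2 was and 4.50 when HFD replicate 3 was. Likeness in pattern was described by Pearson r over the 6 libraries, which fall apart into high and low ones. The genes compared were 10296 that averaged 5 TPM or more. The closest of so many over 6 libraries have a high r in part by selection, and no link between the genes was tested. Most like Ighd were H2-Oa (r = 0.9998), Cd79b (0.9997) and Fam78a (0.9995). H2-Oa encodes a chain of H2-O, which tempers peptide loading of class II molecules in B cells. Those most like Ighm were Tes (0.9995), Racgap1 (0.9989) and Tpr (0.9989). Tes encodes testin, a LIM domain protein of focal adhesions, Racgap1 a regulator of cell division and Tpr a nuclear pore protein. Each had a clear level in all 6 libraries, such as 24.8, 4.62 and 27.6 TPM of Tes in HEP and 6.11, 9.24 and 19.9 TPM in HFD.

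**Figure D2:**
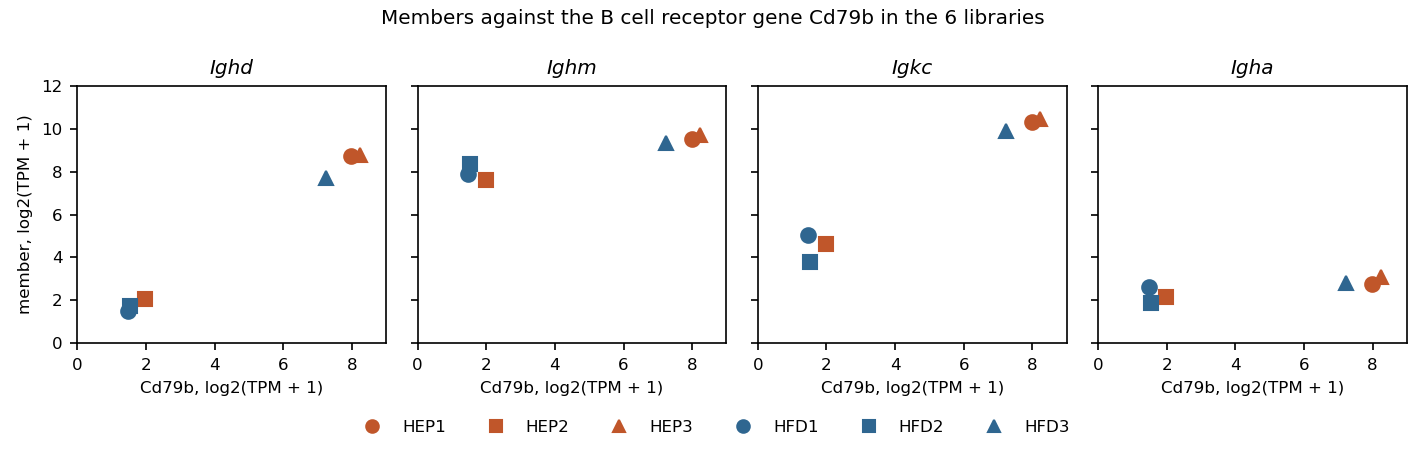
Ighd, Ighm, Igkc and Igha against Cd79b, each as log2(TPM + 1), with 1 point per library and the HEP libraries listed first. Ighd falls with Cd79b to 1.80 TPM, Ighm stays at 194 TPM or more in the libraries low in Cd79b, and Igha spans 2.84-fold.

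Light chain transcripts followed the B cell markers more closely than Ighm did. Igkc, the constant region of kappa chains, had 1288, 23.6 and 1421 TPM in HEP and 32.5, 12.9 and 958 TPM in HFD, a span of 110-fold. It was the highest member in HEP replicates 1 and 3 and in HFD replicate 3, and the second after Ighm in the other libraries. The ratio of Igkc to the summed heavy chain constants was 1.07, 0.117 and 1.07 in HEP and 0.134, 0.0392 and 1.05 in HFD. Its mean log2 was -0.97 ± 1.84 in HEP and -2.50 ± 2.40 in HFD (SD, n = 3 each), with an exact permutation p of 0.50, two-sided, and 0.60 adjusted over the 6 ratios. The difference of 1.53 became 1.00 on omitting either HEP replicate 1 or HEP replicate 3, and 2.59 on omitting HEP replicate 2. Omitting HFD replicate 2 gave 0.44, and omitting HFD replicate 3 gave 2.82.

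The lambda light chain constants, Iglc1 to Iglc4, are the alternative to kappa. Their sum was 715, 14.1 and 765 TPM in HEP and 2.22, 3.71 and 420 TPM in HFD. Iglc2 was the highest of them in every library except HFD replicate 2, where Iglc3 was. Iglc2 and Iglc3 lay close together at 1.12 and 1.10 TPM in HFD replicate 1, and at 1.79 and 1.92 TPM in HFD replicate 2. Sequence shared among the lambda genes was not examined, so their order is uncertain there. The ratio of lambda to kappa was 0.555, 0.599 and 0.538 in HEP, against 0.0683, 0.287 and 0.438 in HFD, and the groups did not overlap. The mean log2 ratio was -0.83 ± 0.08 in HEP and -2.29 ± 1.41 in HFD (SD, n = 3 each). That difference of 1.46 had an exact permutation p of 0.10, two-sided, the smallest that the design allows, and an adjusted p of 0.40 over the 6 ratios. The HFD spread rests on replicates 1 and 2, whose lambda sums are the lowest of the 6. The difference was 0.67 without HFD replicate 1 and between 1.42 and 2.01 without each other library in turn. None of the 3 tested lambda genes passed the diet test, with log2 fold changes between 2.72 and 3.42.

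Switched classes were scarce. Summed over the 4 IgG constants, HEP libraries had 30.1, 0.40 and 44.0 TPM and HFD libraries 0.28, 1.97 and 44.6 TPM. Ighg2b had 10.5, 0.20 and 6.53 TPM in HEP and 0.07, 0.10 and 12.3 TPM in HFD. Ighg3, the IgG of carbohydrate responses, had 5.38, 0.00 and 8.08 TPM in HEP and 0.14, 0.14 and 17.6 TPM in HFD. Both genes were high in the libraries rich in Cd79b and near 0 in the others.

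Ighg1 and Ighg2c did not share 1 order over these libraries. In mice Ighg1 is the class favoured by interleukin-4 and Ighg2c the one favoured by interferon-gamma. Ighg1 had 1.99, 0.00 and 27.3 TPM in HEP and was listed at 0 in HFD replicates 1 and 2, with 2.67 TPM in HFD replicate 3. Ighg2c had 12.2, 0.20 and 2.14 TPM in HEP and 0.07, 1.73 and 12.1 TPM in HFD. HEP replicate 3 was therefore the highest library for Ighg1 and far below HEP replicate 1 for Ighg2c. As shares of the IgG sum, Ighg1 made up 62.0% in HEP replicate 3, against 6.60% in HEP replicate 1 and 5.98% in HFD replicate 3. Ighg2c made up 4.86%, 40.6% and 27.1% in those libraries.

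HFD replicate 2 stood out for Ighg2c alone among the IgG genes. There Ighg2c had 1.73 TPM while Ighg1 was listed at 0 and Ighg2b and Ighg3 had 0.10 and 0.14 TPM. The genes most like Ighg1 were Mrm1 (Pearson r = 0.973), Rps12-ps3 (0.965) and Scmh1 (0.953), and those most like Ighg2b were Ccl19-ps1 (0.998), the member Jchain (0.995) and Igbp1 (0.992). Each of these correlations is over 6 libraries that share their lymphocyte content. Of Ighe, the constant region of IgE, there were 0.12, 0.00 and 0.41 TPM in HEP and 0.00, 0.00 and 0.18 TPM in HFD, and it was not tested.

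Igha, the constant region of the mucosal antibody IgA, varied least of the members that were above 0 in every library. It had 5.82, 3.41 and 7.39 TPM in HEP and 5.08, 2.60 and 5.98 TPM in HFD, a span of 2.84-fold. The groups overlapped. Its 3 highest values were in HEP replicates 3 and 1 and HFD replicate 3, the libraries rich in Cd79b, so it followed the same split as the other members over a smaller span. The lowest of those, 5.82 TPM in HEP replicate 1, was close to the 5.08 TPM of HFD replicate 1. Igha had rank 3 among the 10 members in HEP replicate 2 and in HFD replicates 1 and 2, and rank 7 or 8 in the others. Its ratio to Ighm was 0.00779, 0.0176 and 0.00879 in HEP and 0.0216, 0.00805 and 0.00923 in HFD, a log2 difference of -0.14 (exact permutation p = 0.60, two-sided) that changed sign without HEP replicate 1 (0.087) and without HFD replicate 1 (0.30). The genes most like it were 2 pseudogenes, Rpl14-ps1 (Pearson r = 0.978) and Trmt112-ps2 (0.951), and Ppif (0.950), which encodes mitochondrial cyclophilin D.

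**Figure D3:**
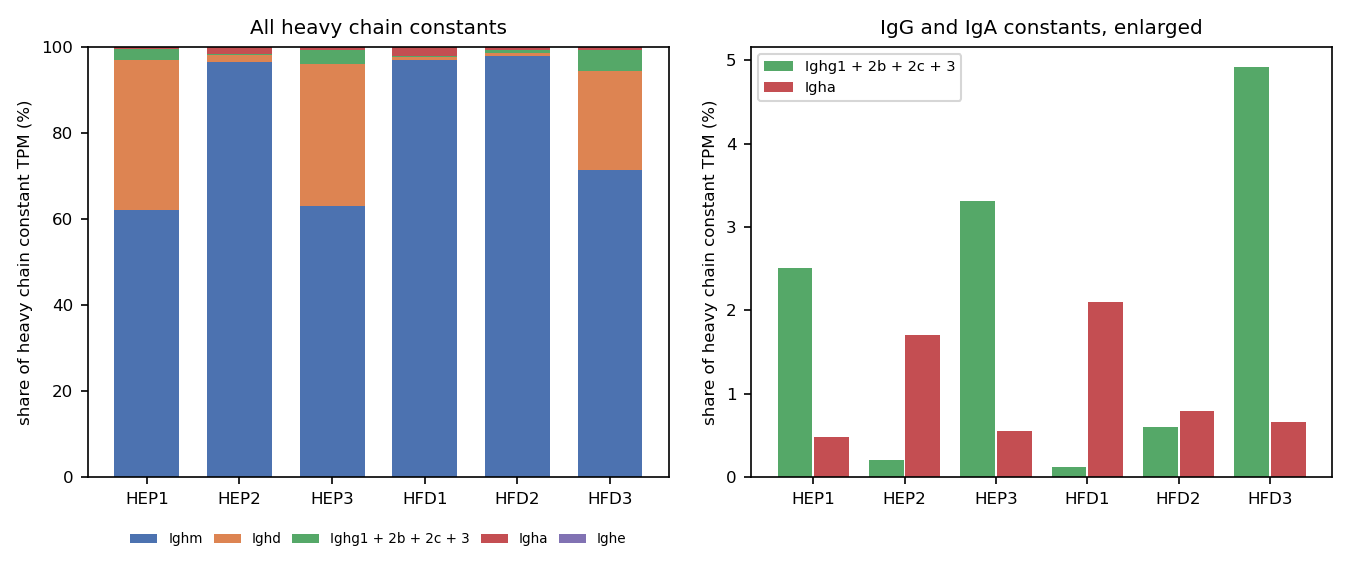
Share of each heavy chain constant gene in the summed heavy chain TPM of each library, HEP libraries left of HFD libraries, with all classes in the first panel and IgG (the 4 Ighg genes together) beside Igha on an enlarged axis in the second. Ighm makes up 62.1% to 97.9%, and IgG exceeds Igha in HEP replicates 1 and 3 and in HFD replicate 3 only.

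As shares of all heavy chain constant transcripts, Ighm made up 62.1%, 96.6% and 63.1% in HEP and 97.0%, 97.9% and 71.3% in HFD. Ighd made up 34.9%, 1.55% and 33.0% in HEP and 0.743%, 0.700% and 23.1% in HFD. The IgG genes together held 2.51%, 0.199% and 3.31% in HEP and 0.116%, 0.597% and 4.91% in HFD. HFD replicate 3 thus had a larger IgG share and a smaller Ighd share than HEP replicates 1 and 3, with 1 such HFD library to compare. Igha held 0.484%, 1.70% and 0.555% in HEP and 2.10%, 0.788% and 0.658% in HFD. The variable segments, whose products are joined to these constants, summed to 2479, 56.8 and 3295 TPM in HEP and 31.9, 24.8 and 1517 TPM in HFD. Of 218 such segments 176, 42 and 185 were above 0 in HEP and 28, 26 and 167 in HFD.

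Jchain had 38.2, 2.29 and 32.3 TPM in HEP and 2.72, 2.25 and 46.6 TPM in HFD, a span of 20.7-fold. HFD replicate 3 had the highest level here, while it had the lowest Ighm, Ighd and Igkc of the 3 libraries rich in Cd79b. Per kappa transcript, Jchain stood at 0.0297, 0.0972 and 0.0227 in HEP and 0.0836, 0.174 and 0.0486 in HFD. This ratio was lower in each of the 3 libraries rich in Cd79b than in any other library, so diet and that split cannot be told apart in it. The log2 ratio averaged -4.63 ± 1.12 in HEP and -3.49 ± 0.92 in HFD (SD, n = 3 each), a difference of -1.14 that had an exact permutation p of 0.30, two-sided, and an adjusted p of 0.45 over the 6 ratios. With HEP replicate 2 left out it was -1.78, with HEP replicate 3 left out -0.73, and with HFD replicate 2 left out -0.66.

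The diet comparison asked whether hesperidin changed these genes. In limma's test on log2(TPM + 1), with p-values adjusted by Benjamini-Hochberg across the 15446 genes tested, 0 of the 9 tested members passed an adjusted p of 0.05, and 0% of all tested genes passed in either direction. At an unadjusted p under 0.05 the members numbered 0 as well, where 0.68% of all tested genes were higher and 1.13% lower in HEP. For 0 of 9 members did the HEP libraries lie entirely above the HFD libraries, against 1.88% of all tested genes, and for 0 entirely below, against 3.58%. All 9 had a positive log2 fold change, as did 58.6% of all tested genes, and 3 of 9 had one above 1, against 5.63% of all tested genes. The members' median was 0.91, beside 0.07 over all genes tested. HEP had 2 libraries rich in Cd79b and HFD had 1, and the members are not independent of each other.

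Ighd had the largest fold change, averaging 287 ± 246 TPM in HEP and 71.4 ± 120.02 TPM in HFD (SD, n = 3 each). The log2 fold change was 2.87 ± 2.41 (SE), with a limma adjusted p of 0.879. For Igkc, at 911 ± 771 TPM in HEP and 334 ± 540 TPM in HFD, it was 2.22 ± 2.14 (SE) with an adjusted p of 0.879 in limma. Ighm averaged 594 ± 349 TPM in HEP and 402 ± 217 TPM in HFD, with a log2 fold change of 0.43 and a 95% interval of -1.14 to 2.01. Jchain, at 24.3 ± 19.3 TPM in HEP and 17.2 ± 25.5 TPM in HFD, had a log2 fold change of 0.97 with an interval of -2.34 to 4.28.

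Igha had the narrowest interval. It averaged 5.54 ± 2.00 TPM in HEP and 4.55 ± 1.75 TPM in HFD, with a log2 fold change of 0.24 and a 95% interval of -0.64 to 1.13. The IgG constants had log2 fold changes of 1.51 for Ighg1, 0.91 for Ighg2b, 0.42 for Ighg3 and 0.13 for Ighg2c, and the intervals of all 4 spanned 0. Ighg1 was tested only through its 27.3 TPM in HEP replicate 3, and without that library it fell below the filter. Adjusted limma p-values of the 9 members lay between 0.879 and 0.981. A p above the threshold does not show that the groups are alike, since the intervals of Ighd and Igkc allow changes of many fold either way.

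**Figure D4:**
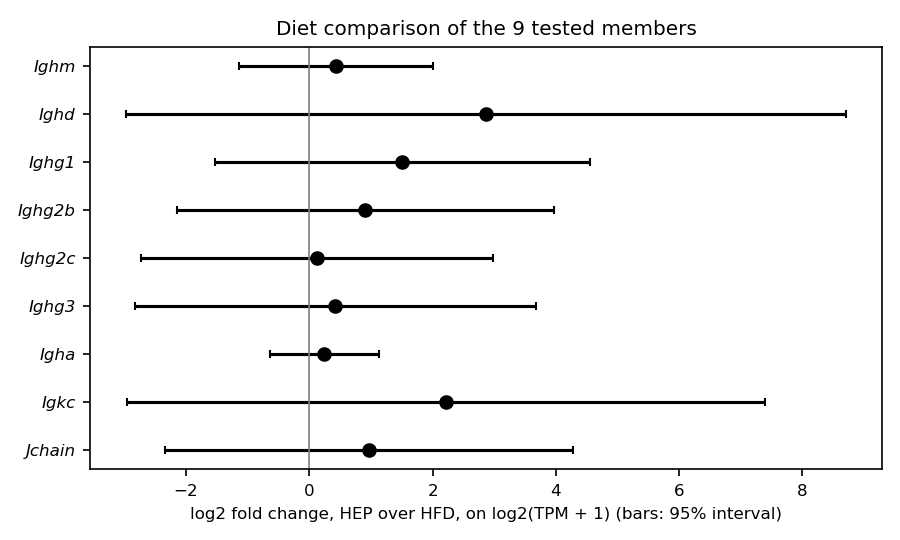
Log2 fold change of each tested member, HEP over HFD, on the log2(TPM + 1) scale, with its 95% moderated interval from limma. Every interval spans 0, the narrowest being that of Igha from -0.64 to 1.13.

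When the mean log2 level of the 20 T and NK cell markers was added as a covariate, which contains no member, the fold changes of Ighd and Igkc came down to 0.35 and 0.037. That of Ighg1 stayed positive at 0.50. Those of Ighm, Ighg2b, Ighg2c, Ighg3, Igha and Jchain turned negative, between -0.93 and -0.014. None passed with that covariate, where the limma adjusted p of every member rounded to 1.00. Leaving out HEP replicate 2 moved the Ighd change to 5.10 and the Igkc change to 4.15, with adjusted limma p-values of 0.193 and 0.208. That omission brought 3789 of all 15394 tested genes under an unadjusted limma p of 0.05, against 279 in the reported fit. Without HEP replicate 1, HEP replicate 3, HFD replicate 1 or HFD replicate 2 in turn, the Ighd change lay between 1.73 and 1.91, and without HFD replicate 3 it was 4.91.

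Genes of the plasma cell programme did not form 1 pattern. Of 14 listed, 14 were tested, 9 had a higher and 5 a lower log2 fold change, with a median of 0.26, and 0 passed. Xbp1, the transcription factor of secretory cells, had 126, 150 and 77.8 TPM in HEP and 126, 132 and 101 TPM in HFD, so it was no lower where immunoglobulin was scarce. Txndc5 and Edem1, a disulfide isomerase and a degradation factor of the endoplasmic reticulum, ranged from 46.4 to 61.2 TPM and from 43.0 to 65.0 TPM. Xbp1, Txndc5 and Edem1 are used by many secretory cells besides plasma cells. Further genes named here were picked after their values were seen. Mzb1, a chaperone of immunoglobulin assembly, had 32.8, 0.50 and 44.9 TPM in HEP and 0.00, 0.24 and 26.9 TPM in HFD, high in the same libraries as Igkc. Mzb1 was not alone in this. Irf4, Slamf7, Cd38, Tnfrsf13b and Prdm1 were also higher in each of those libraries than in any other, and the remaining listed genes were not. Tnfrsf17, the survival receptor of plasma cells, had 1.24, 2.22 and 1.19 TPM in HEP and 1.12, 0.83 and 1.05 TPM in HFD. In 2 of the 14 genes, Tnfrsf17 and Derl3, all HEP values lay above all HFD values, against 1.88% of all tested genes. Their means over the libraries were low, at 1.3 and 1.1 TPM.

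None of the tested class switching and germinal centre genes passed the diet test in limma. Of 15 listed, 11 were tested, 10 of them had a positive log2 fold change, and the median of the 11 was 0.34. Efnb1, an ephrin ligand, did not follow Cd79b, with 25.8, 31.4 and 25.8 TPM in HEP and 29.4, 32.4 and 25.2 TPM in HFD. Basp1, a membrane-bound signalling protein, had 21.5, 4.88 and 26.0 TPM in HEP and 5.17, 10.1 and 21.9 TPM in HFD. Tnfrsf13b, a receptor for B cell survival factors, was high in the libraries rich in Cd79b, with 52.1, 1.94 and 60.9 TPM in HEP and 1.58, 2.85 and 30.7 TPM in HFD. The cytokines and survival factors that steer B cells had 5 tested genes of 12, all with a positive fold change and 0 passing. Tgfb1, which favours the switch to IgA, had 57.0, 28.0 and 57.3 TPM in HEP and 20.7, 36.0 and 51.4 TPM in HFD. Il33, an alarmin cytokine, had 12.2, 2.23 and 12.1 TPM in HEP and 2.33, 5.38 and 11.6 TPM in HFD. Tnfsf13b, the B cell survival factor BAFF, had 9.19, 1.81 and 7.09 TPM in HEP and 1.5, 2.59 and 4.20 TPM in HFD. All 3 were higher in the libraries rich in Cd79b than in the others.

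Of 14 receptors and carriers of immunoglobulin listed, 12 were tested, 7 had a higher and 5 a lower log2 fold change, and 0 passed. Fcgrt, the neonatal Fc receptor that recycles IgG, had 211, 292 and 181 TPM in HEP and 265, 306 and 226 TPM in HFD, lowest in the 3 libraries where Igkc was highest. Cd300lg, a receptor of capillary endothelium, had 225, 280 and 188 TPM in HEP and 232, 289 and 225 TPM in HFD. Fcer1g, the signalling chain shared by several Fc receptors, had 61.2, 48.2 and 60.2 TPM in HEP and 46.2, 98.6 and 58.4 TPM in HFD. Fcmr, the Fc receptor for IgM on lymphocytes, named after its values were seen, had 121, 0.35 and 145 TPM in HEP and 0.43, 0.93 and 65.3 TPM in HFD. Pigr, which carries IgA and IgM across epithelia and was chosen in the same way, had 0.40, 16.3 and 1.39 TPM in HEP and 11.0, 0.71 and 0.76 TPM in HFD. The libraries high in Pigr were those high in Alb, and the part of liver transcripts in its level was not tested.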

How the data were processed

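RNA was sequenced from inguinal fat in 3 HEP and 3 HFD libraries. Extraction used TRIzol and library preparation a TruSeq RNA kit, per the labels' protocols. Whether strand was kept is not given in the sources used here. The deposited table gives TPM per gene and library as the authors computed it. Its 2 columns of group means were not used. Tools named in the submitters' processing notes are HISAT2, StringTie, RSEM, fastp and DESeq2, with no version. The build, annotation and depth are not given. TPM is relative, so a rise of abundant transcripts lowers all others.

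Samples were grouped by title. Genes averaging 1 TPM or more over the libraries were tested on log2(TPM + 1), a scale that understates changes of low genes, with limma 3.58.1 in R 4.3.3 (trend, two-sided, Benjamini-Hochberg threshold 0.05). The filter uses the mean over both groups, so members with high values in a few libraries pass through those. Ratios of TPM within a library had exact permutation tests (scipy 1.17.1). Scripts were tested on simulated data. Transcripts of GENCODE M21 were aligned with MAFFT 7.526, and 10 of 10 members matched by ID. The members and lists were chosen with earlier results of these data known. Named genes were drawn from the members, the lambda constants, the 3 most abundant of each list and the 3 most like each of 5 members, leaving out immunoglobulin, T cell receptor and predicted genes.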

Additional observations from a re-analysis of the deposited data

How the results depend on the processing

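Beside the reported fit, 9 other settings of the diet test, 1 of the ratios and the omission of each library in turn were run, and 0 members passed in any. The count of genes passing was 0 in each setting except without HEP replicate 2, so its range over omitted libraries was 0 to 1 for higher and 0 to 0 for lower genes, and the gene called there is no member. With the T and NK cell covariate the log2 fold change turned to -0.22 for Ighm, -0.36 for Ighg2b, -0.93 for Ighg2c, -0.93 for Ighg3, -0.014 for Igha and -0.44 for Jchain. With quantile normalization, which moved the median of all genes by -0.13, that of Ighg2c turned to -0.050. Over the omitted libraries it ranged from -0.80 to 1.11 for Ighg2c, from -0.25 to 1.76 for Ighg3 and from -0.044 to 0.50 for Igha. The log2 ratio of Igha to Ighm ranged from -0.50 to 0.30. The causes of these turns were not tested. Other log2 ratio differences kept their sign, at 1.75 to 4.50 for Ighd over Ighm, -4.20 to -1.55 for Ighm over Cd79b, -1.78 to -0.66 for Jchain over Igkc, 0.67 to 2.01 for lambda over kappa and 0.44 to 2.82 for Igkc over heavy chains. The same ranges kept their sign for Ighm (0.055 to 1.11), Ighd (1.73 to 5.10), Ighg1 (1.20 to 2.58), Ighg2b (0.27 to 2.12), Igkc (0.99 to 4.15) and Jchain (0.29 to 2.22). Ighg1 without HEP replicate 3, and Ighg2b and Ighg2c under a minimum of 5 TPM, fell below the filter and gave no value. The Ighg1 range thus lacks the omission of its highest library, and whether its sign would hold there was not tested. Whether the replicate numbers pair the samples is not settled here. Deviations from the group mean correlated at -0.35, 0.37 and 0.65 between same-numbered libraries. Between HEP and HFD libraries of unlike number they correlated at -0.71 to 0.50. With so few libraries, which also split by lymphocyte RNA, these values cannot decide it. With the replicate block 0 members and 0 genes passed, and Ighd had a log2 fold change of 2.87 with an adjusted limma p of 0.753. Low values such as those of Ighe are near the bottom of the scale, and unknown depth limits what they can show.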
